A study of Drosophila melanogaster with 12 samples.

Results

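The genes described here make the proteins that bind, write or limit histone H3 lysine 9 (H3K9) methylation, the histone mark of heterochromatin. They were chosen by name: the HP1 family genes *HP1a*, *HP1b* and *HP1c*, the H3K9 methyltransferase genes *Su(var)3-9*, *egg* and *G9a*, the suppressors of variegation *Su(var)3-7* and *Su(var)2-10*, and the histone kinase gene *JIL-1*. All 9 were in the count tables, which listed 15998 genes, and all 9 were among the 9612 genes that had enough sense reads to be tested (at least 1 CPM, a unit explained below, in at least 2 libraries).

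The study asked what loss of UpSET, a SET domain protein of a histone deacetylase complex, does to chromatin and transcription in male S2 cells, a macrophage-like line of *Drosophila melanogaster* that is polyploid. Nascent RNA, the RNA still held by chromatin-bound RNA polymerase II, was sequenced from 3 *upSET* mutant lines and from the parental S2 line, with 2 libraries of each, 8 in all. Clone G3 carried a homozygous 67 bp deletion that took the start codon, clone A7 carried 2 separate 7 bp deletions that both shift the reading frame, and clone B2 carried a 1 bp deletion that shifts it after 367 amino acids. The parental S2 cells carried no *upSET* mutation. Each mutant line grew from a single sorted cell, so that in each line the mutation and whatever else set that founding cell apart cannot be told apart. The labels number the libraries replicate 1 and replicate 2 and do not say whether they came from separate cultures, so p-values measure the spread between these libraries, which may be technical. The 4 ChIP samples of the series were not analysed here.

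The mutant lines differ in where Cas9 was aimed, and the 2 target sites are shown because they define the groups. The protospacer is in lower case and the adjacent NGG motif that Cas9 requires (PAM) is in capitals, 5′ to 3′. The target of G3 and A7 lies at chr3L:14000954-14000976 on the minus strand and that of B2 at chr3L:14002035-14002057 on the plus strand. The study's oligonucleotide list gives these positions and names no build. Both lie within *upSET*, listed as *CG9007* at 3L, 13995223 to 14013251, in the dm3 count tables.
Target of G3 and A7: aaccgagtcgtgactggacaTGG
Target of B2: acagcagatcagcctaccgcAGG

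Heterochromatin forms where a methyltransferase places methyl groups on H3K9 and an HP1 protein binds the methylated tail through its chromodomain. HP1 in turn recruits methyltransferase, so that the state can spread along the chromosome and silence a gene placed next to it, which is the basis of position effect variegation. Many of these genes were found in flies as suppressors of that silencing, hence the name Su(var). JIL-1 works in the other direction: it phosphorylates the neighbouring serine 10 of H3 in interphase, and in flies that lack it H3K9 dimethylation and HP1 spread into euchromatin.

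Replicate 1 libraries held 8333319 to 10902304 sense counts and replicate 2 libraries 4738785 to 5427807, so replicate 2 is the less precise. A value of 3 counts equals 0.283 to 0.642 CPM in these libraries, and each sense value of a member below rests on at least 41 reads. Of 7 macrophage and S2 markers, 5 were above 1 CPM in all 8 libraries, among them *srp*, while *NimC1* stayed under 1 CPM. The last, *Hml*, had 0.881 to 30.5 CPM, highest in A7 replicate 1. All 4 markers of male dosage compensation were above 1 CPM in all 8 libraries. Of these, *roX1* had 3861 and 4168 CPM in the G3 libraries and 316 and 145 CPM in those of A7. It had 15.1 and 49.2 CPM in those of B2, against 15.2 and 13.6 CPM in those of S2. Summed markers of fat body reached at most 1.27 CPM, those of gut at most 0.707 CPM, those of muscle at most 4.75 CPM and those of germ line at most 5.21 CPM. Markers of other tissues were also read. Of those of neurons, *elav* had 49.2 to 65.9 CPM and *Syt1* 0 to 1.97 CPM, and *nSyb* was not matched. Of the markers of follicle or gonad soma, *tj* had 11.6 to 39.7 CPM. The other, *zfh1*, a gene that is also active in blood cells, had 5669 to 14137 CPM. All 8 libraries come from cultured cell lines, not from tissue, and the part of these markers in the results was not tested. *CG9007* itself averaged 462 CPM in the G3 libraries, 683 CPM in those of A7 and 672 CPM in those of B2, against 555 CPM in those of S2, and deletions this small are not checked by a count over the whole gene. In these bulk libraries, fewer cells making a transcript and less transcript per cell cannot be told apart. Below, CPM is the count of sense reads relative to the library's total, on the usual CPM scale, after TMM scaling (a factor per library that sets aside genes with extreme ratios), and a log2 fold change compares a mutant line with S2 in edgeR's quasi-likelihood test fitted on all 8 libraries.

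None of the 9 genes passed an adjusted p of 0.05 in any mutant line. Of the 9 genes 0 passed for G3, where 0.603% of all tested genes did, 0 for A7, where 0.375% did, and 0 for B2, where 0.0104% did (edgeR, Benjamini-Hochberg adjustment). DESeq2 also called 0 of 9 in each line, where it called 195, 162 and 38 of the 9612 tested genes for G3, A7 and B2. At an unadjusted p under 0.05 edgeR, with no term for the replicate number, gave 0 members for G3, 2 for A7 (*HP1b* and *egg*, both lower) and 0 for B2, against 11.1%, 8.75% and 3.25% of all genes. The fitted log2 fold changes of the 9 genes lay between -0.56 (*HP1b* in A7) and 0.29 (*JIL-1* in G3), and the median of the 9 was -0.16 for G3, -0.09 for A7 and -0.07 for B2, beside medians over all tested genes of -0.06, -0.05 and -0.03.

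**Figure D1:**
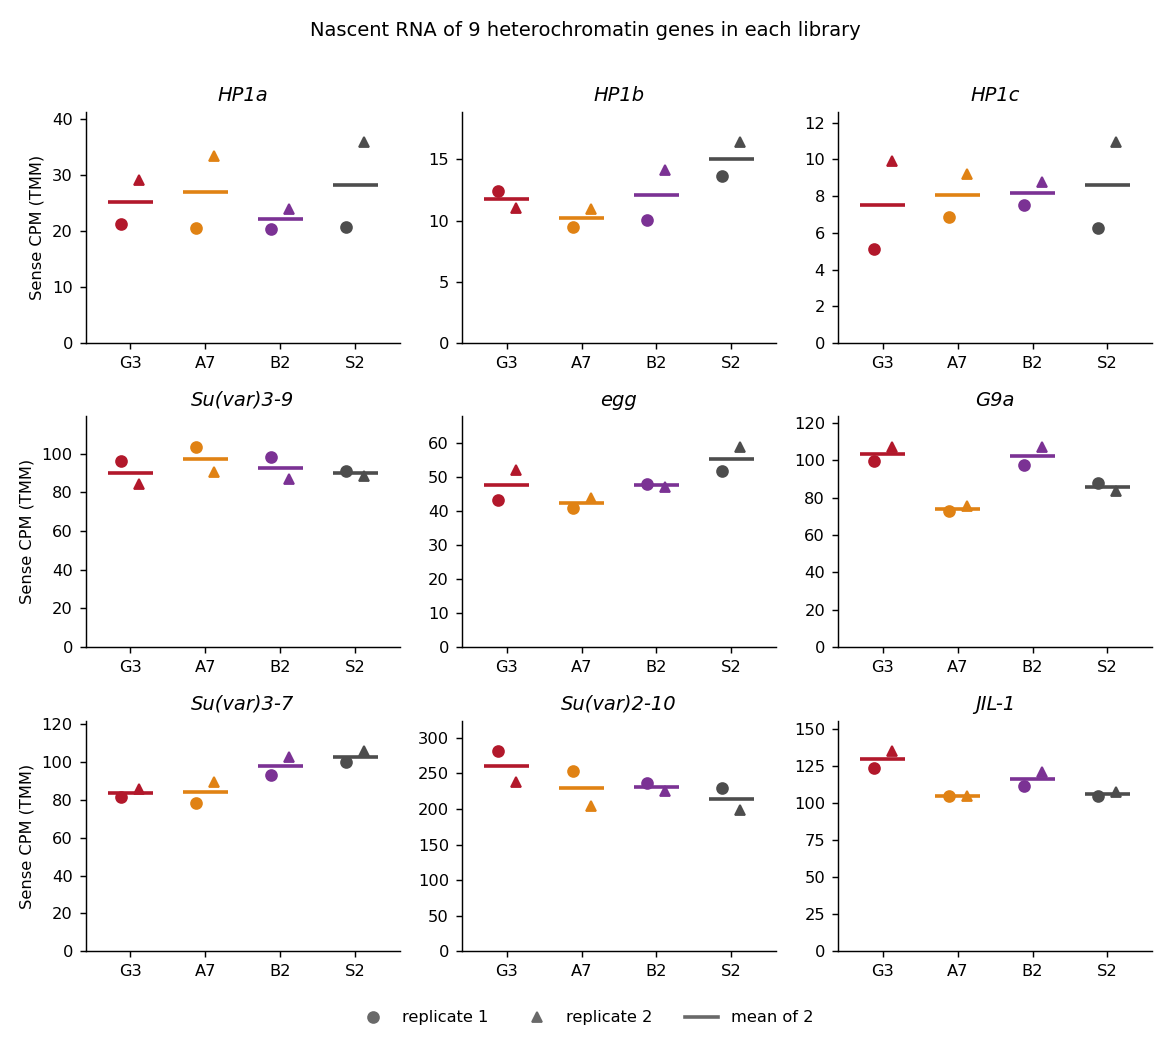
Sense CPM (TMM scaled, linear axes from 0) of each of the 9 genes in the mutant lines G3, A7 and B2 and in S2; circles are replicate 1, triangles replicate 2, and bars the mean of the 2 libraries. In *G9a* both G3 and both B2 libraries lie above both S2 libraries and both A7 libraries lie below them. In *HP1a*, *HP1c* and *Su(var)3-7* every line's replicate 2 lies above its replicate 1.

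*HP1a*, which the count tables list by its Su(var) symbol and which is also called *Su(var)2-5*, encodes the founding HP1 protein, the main reader of H3K9 dimethylation and trimethylation in flies. It lies at 2L, 8209626 to 8211154 (dm3). It had 21.2 and 29.1 CPM in the G3 libraries, 20.5 and 33.3 CPM in those of A7 and 20.4 and 24.0 CPM in those of B2 (replicate 1, then replicate 2), against 20.6 and 35.8 CPM in those of S2. The 4 replicate 1 libraries were within 1 CPM of each other, the replicate 2 libraries were all higher, and each mutant line overlapped S2. Against S2, G3 had a log2 fold change of -0.16 ± 0.33 (SE), A7 one of -0.07 ± 0.33 and B2 one of -0.34 ± 0.34, with adjusted p of 0.916, 0.971 and 0.999. The 95% interval in G3 ran from 0.517-fold to 1.54-fold, in a fit with no term for the replicate number. Without S2 replicate 2 the sign turned in all 3 lines, to 0.32, 0.42 and 0.13 for G3, A7 and B2.

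*HP1b*, an HP1 paralogue found in both heterochromatin and euchromatin, lies at X, 8975096 to 8976779. It had 12.4 and 11.1 CPM in the G3 libraries, 9.43 and 11.0 CPM in those of A7 and 10.0 and 14.1 CPM in those of B2, against 13.7 and 16.4 CPM in those of S2. Both libraries of G3 and of A7 were below both S2 libraries, and B2 overlapped S2. Between libraries of the same number, all 6 ratios of mutant to S2 were below 1. The fits gave G3 a log2 fold change of -0.35 ± 0.23 (SE), A7 one of -0.56 ± 0.23 and B2 one of -0.33 ± 0.23, with adjusted p of 0.674, 0.540 and 0.999. The A7 value was the lowest of all member values, with a 95% interval of 0.467-fold to 0.982-fold.

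*HP1c* encodes the paralogue found mainly in euchromatin, where it binds zinc finger proteins. It lies at 3R, 18571350 to 18572327, and at 978 bp it is the shortest of the 9 genes. It had 5.11 and 9.90 CPM in the G3 libraries, 6.89 and 9.21 CPM in those of A7 and 7.54 and 8.77 CPM in those of B2, against 6.26 and 10.9 CPM in those of S2. All mutant libraries lay within the S2 range except G3 replicate 1, which was the lowest of the 8 and held 52 reads. Against S2, G3 had a log2 fold change of -0.21 ± 0.41 (SE), A7 one of -0.09 ± 0.40 and B2 one of -0.07 ± 0.41, with adjusted p of 0.910, 0.971 and 0.999. Its interval was the widest of the 9 genes, 0.445-fold to 1.68-fold in G3, and the sign turned in each line without S2 replicate 2 (0.28, 0.40 and 0.40). Summed over the 3 HP1 genes, the G3 libraries had 38.7 and 50.1 CPM, those of A7 36.8 and 53.5 CPM and those of B2 37.9 and 46.8 CPM, against 40.5 and 63.1 CPM in those of S2.

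*Su(var)3-9* encodes the methyltransferase that makes much of the H3K9 dimethylation and trimethylation of pericentric heterochromatin. It lies at 3R, 11085586 to 11089231. It had 96.0 and 84.2 CPM in the G3 libraries, 103.7 and 90.5 CPM in those of A7 and 98.0 and 86.8 CPM in those of B2, against 90.8 and 88.7 CPM in those of S2. The S2 libraries lay inside the range of G3 and that of B2 and overlapped that of A7. The fits gave G3 a log2 fold change of 0.01 ± 0.14 (SE), A7 one of 0.11 ± 0.14 and B2 one of 0.04 ± 0.14, with adjusted p of 0.995, 0.882 and 0.999, and its interval in G3 ran from 0.794-fold to 1.27-fold. These counts do not belong to *Su(var)3-9* alone. The annotated extent of *eIF-2gamma*, a translation initiation factor gene, covers 3079 bp or 84.4% of it, the count table gives no strand, and reads from the shared stretch cannot be told apart. The log2 fold changes of *eIF-2gamma* were -0.01, 0.10 and 0.04 in G3, A7 and B2.

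*egg* (eggless) encodes the fly SETDB1, the methyltransferase of chromosome 4 and of the female germ line. It lies at 2R, 20663007 to 20667448, and overlaps no other gene in the table. It had 43.2 and 52.0 CPM in the G3 libraries, 40.9 and 43.7 CPM in those of A7 and 48.0 and 47.1 CPM in those of B2, against 51.8 and 58.9 CPM in those of S2. Both libraries of A7 and of B2 were below both S2 libraries, while G3 replicate 2 was just above S2 replicate 1. All 6 ratios between libraries of the same number were below 1. Against S2, G3 had a log2 fold change of -0.22 ± 0.14 (SE), A7 one of -0.39 ± 0.14 and B2 one of -0.22 ± 0.14, with adjusted p of 0.683, 0.501 and 0.999. Over the mean of the 3 lines it was -0.27 ± 0.12 with an adjusted p of 0.637. In that fit, which has no term for the replicate number, *egg* was the only member with an unadjusted p under 0.05 (0.0497), where 7.83% of all genes had one.

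*G9a* encodes a methyltransferase that acts mainly in euchromatin. It lies at X, 139996 to 148184, and overlaps no other gene in the table. It had 99.5 and 107.3 CPM in the G3 libraries, 72.8 and 75.4 CPM in those of A7 and 97.7 and 106.9 CPM in those of B2, against 87.7 and 83.7 CPM in those of S2. The lines separated in both directions: G3 and B2 were above S2 in both libraries, and A7 was below S2 in both. The fits gave G3 a log2 fold change of 0.27 ± 0.13 (SE), A7 one of -0.21 ± 0.13 and B2 one of 0.25 ± 0.13, with adjusted p of 0.502, 0.719 and 0.999. In the test for any difference among the 3 mutant lines *G9a* had the lowest p of the 9 genes, 0.0114, which was 0.279 after adjustment over all genes, and in that test 0.416% of all genes passed. Unadjusted, 9.26% of all genes were under 0.05 there. The same test over all 4 lines gave *G9a* a p of 0.0196, against 9.67% of all genes under 0.05, and an adjusted p of 0.342, with 0.572% of genes passing, so *G9a* was called in neither.

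**Figure D2:**
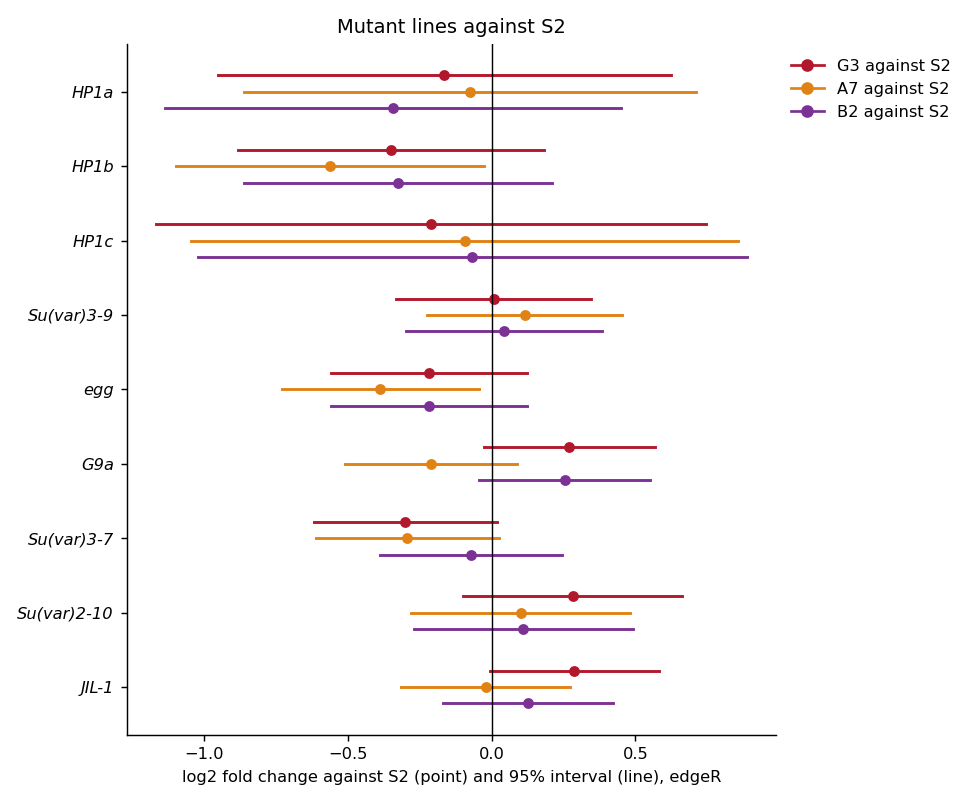
Log2 fold change of G3, A7 and B2 against S2 (points) with the 95% interval of edgeR's test (lines) for the 9 genes. The intervals are widest for *HP1c* and *HP1a*, and only those of *HP1b* and *egg* in A7 leave out 0.

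*Su(var)3-7* encodes a zinc finger protein that binds HP1a and Su(var)3-9 in pericentric heterochromatin. It lies at 3R, 9090077 to 9094932. It had 81.5 and 85.6 CPM in the G3 libraries, 78.5 and 89.5 CPM in those of A7 and 93.3 and 102.5 CPM in those of B2, against 99.7 and 105.9 CPM in those of S2. Both libraries of G3 and of A7 were below both S2 libraries, B2 overlapped S2, and all 6 ratios between libraries of the same number were below 1. Against S2, G3 had a log2 fold change of -0.30 ± 0.13 (SE), A7 one of -0.29 ± 0.13 and B2 one of -0.07 ± 0.13, with adjusted p of 0.481, 0.615 and 0.999. Its interval in G3 was 0.652-fold to 1.01-fold. *CG8449*, which shares 74 bp with it, had log2 fold changes of -0.37, -0.51 and -0.01 in the same lines, none of them called.

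*Su(var)2-10* encodes the fly PIAS protein, a SUMO ligase that also brings SetDB1 to silenced transposons in the germ line. It lies at 2R, 5003607 to 5009143, overlaps no other gene in the table, and had the most reads of the 9 genes. It had 281.8 and 237.8 CPM in the G3 libraries, 253.6 and 204.8 CPM in those of A7 and 236.9 and 224.8 CPM in those of B2, against 228.9 and 198.7 CPM in those of S2. Both G3 libraries were above both S2 libraries, A7 and B2 overlapped S2, and all 6 ratios between libraries of the same number were above 1. The fits gave G3 a log2 fold change of 0.28 ± 0.16 (SE), A7 one of 0.10 ± 0.16 and B2 one of 0.11 ± 0.16, with adjusted p of 0.614, 0.911 and 0.999.

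*JIL-1* encodes the H3 serine 10 kinase that counters the spread of heterochromatin and is enriched on the male X chromosome. It lies at 3L, 11071851 to 11085001, is the longest of the 9 genes at 13151 bp, and overlaps no other gene in the table. It had 123.9 and 135.3 CPM in the G3 libraries, 104.9 and 104.4 CPM in those of A7 and 111.2 and 120.6 CPM in those of B2, against 104.7 and 107.7 CPM in those of S2. G3 and B2 were above S2 in both libraries, and A7 differed from S2 by less than 4 CPM in any pair of libraries. Against S2, G3 had a log2 fold change of 0.29 ± 0.12 (SE), A7 one of -0.02 ± 0.12 and B2 one of 0.13 ± 0.12, with adjusted p of 0.465, 0.981 and 0.999. In G3 its interval was 0.995-fold to 1.5-fold, and in A7, where the values were closest to S2, it was 0.804-fold to 1.21-fold.

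Set side by side, 5 of the 9 genes had fitted values below 0 in all 3 lines (*HP1a*, *HP1b*, *HP1c*, *egg* and *Su(var)3-7*), as did 32.4% of all genes, and 2 had values above 0 in all 3 (*Su(var)3-9* and *Su(var)2-10*), as did 21.2% of all genes. The 3 comparisons share the S2 libraries, so the lines are not independent counts of a direction. The same holds for the ratios between libraries of the same number, whose share over all genes was not counted. Libraries of G3 and S2 did not overlap for 3 genes higher in G3 (*G9a*, *Su(var)2-10*, *JIL-1*) and 2 lower (*HP1b*, *Su(var)3-7*), where 17.1% and 21.1% of all genes were so placed. In A7 there were 0 higher and 4 lower (*HP1b*, *egg*, *G9a*, *Su(var)3-7*), against 16.7% and 19.5%. In B2 there were 2 higher (*G9a*, *JIL-1*) and 1 lower (*egg*), against 13.1% and 13.3%. The S2 replicate 2 library held the highest value of all 8 for 5 genes (*HP1a*, *HP1b*, *HP1c*, *egg*, *Su(var)3-7*), and A7 replicate 1 the lowest for 4 (*HP1b*, *egg*, *G9a*, *Su(var)3-7*). No member was called over the mean of the 3 mutant lines against S2 either, where 0.156% of genes passed and the members' median was -0.12, beside -0.05 over all genes.

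For *HP1a* and *HP1c* the 2 libraries of a line differed, on average over the lines, by more than the line means did: by 0.55 on the log2 scale, against a range of line means of 0.30, for *HP1a*, and by 0.60, against 0.22, for *HP1c*. The same held on a smaller scale for *Su(var)3-9*. There the mean log2 ratio of replicate 2 to replicate 1 was -0.15, against a range of line means of 0.11. The share of all genes for which this held was not counted. In *HP1a* replicate 2 was 1.37 times replicate 1 for G3, 1.63 times for A7 and 1.18 times for B2, against 1.74 times for S2. In *HP1c* the ratio was 1.94 for G3, 1.34 for A7 and 1.16 for B2, against 1.75 for S2. With the line as a term in the model, replicate 2 was higher by 0.56 ± 0.11 (log2, SE) for *HP1a* (adjusted p = 0.0138) and by 0.60 ± 0.18 for *HP1c* (adjusted p = 0.0497), a comparison added after the data were seen, in which 17.5% of all genes were called. The *HP1c* call was lost without any 1 library, at adjusted p of 0.0759 to 0.153, and that of *HP1a* without either S2 library (0.0560 and 0.0510). *Su(var)2-10* and *Su(var)3-9* were lower in replicate 2 in all 4 lines, by -0.21 ± 0.07 and -0.15 ± 0.08, and neither was called (adjusted p of 0.0819 and 0.205). *Su(var)3-7* was higher in replicate 2 in all 4 lines, by 0.12 ± 0.08 in the same model, and was not called (adjusted p = 0.290). The 3 shortest members had the 3 highest fitted differences. Over all genes the median difference was 0.06 for genes up to 2 kb and -0.24 for genes over 10 kb. *JIL-1*, the longest member, had a fitted difference of 0.07 ± 0.08. The lowest members, *Su(var)2-10* and *Su(var)3-9*, are 5537 and 3646 bp long. Replicate 2 libraries also held fewer counts, and the part of gene length and of depth in these differences was not tested.

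**Figure D3:**
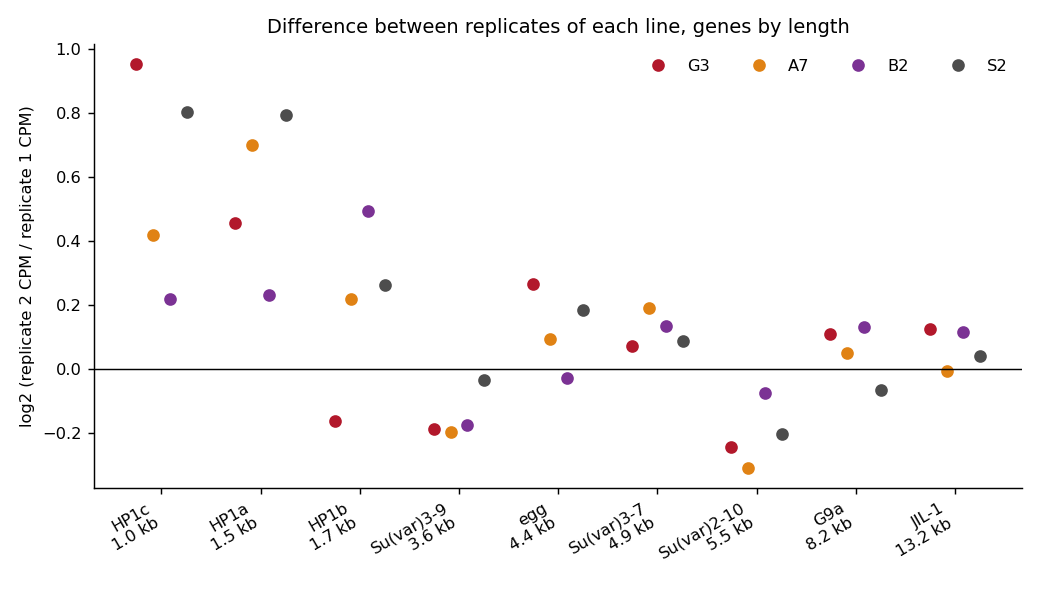
Log2 ratio of replicate 2 to replicate 1 CPM in each of the 4 lines (points), for the 9 genes in order of annotated length. *HP1c*, *HP1a* and *Su(var)3-7* lie above 0 in all 4 lines, and *Su(var)3-9* and *Su(var)2-10* lie below 0 in all 4.

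The genes differed far more from each other than between lines. Per kb of annotated gene, which for nascent RNA includes introns, the mean over the 8 libraries was 42.2 CPM per kb for *Su(var)2-10*, 25.3 for *Su(var)3-9* with the stretch shared with *eIF-2gamma*, 19.0 for *Su(var)3-7* and 16.7 for *HP1a*. *G9a* (11.2 CPM per kb), *egg* (10.9), *JIL-1* (8.68), *HP1c* (8.26) and *HP1b* (7.28) followed. *Su(var)2-10* and *Su(var)3-9* were in the same first 2 places in all 4 lines, and their libraries did not overlap each other. *Su(var)3-7* and *HP1a* overlapped in G3, A7 and S2 and were apart only in B2. *G9a* stood above *egg* in G3 and in B2 with libraries apart, at 12.6 and 12.5 CPM per kb, against 10.7 CPM per kb for *egg* in each. The order was turned in A7 and in S2, with *G9a* at 9.05 and 10.5 CPM per kb and *egg* at 9.53 and 12.5 CPM per kb. *HP1b* had the lowest mean in each mutant line, with libraries apart from those of the next gene in A7 and overlapping them in G3 and B2, and in S2 it stood above *HP1c* with overlapping libraries.

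**Figure D4:**
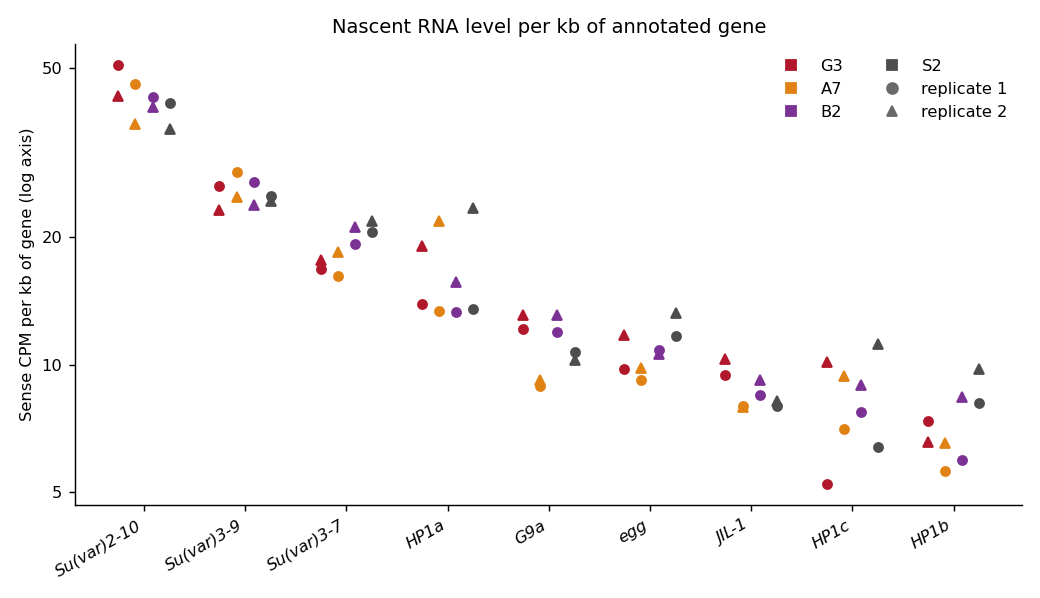
Sense CPM per kb of annotated gene (log axis) in the 8 libraries, genes in order of their mean. Colours mark the lines and shapes the replicates; *Su(var)2-10* lies above all other genes in every library.

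Across the 8 libraries the spread of a single gene was modest. The highest library was 2.14 times the lowest for *HP1c*, 1.76 times for *HP1a*, 1.74 times for *HP1b*, and between 1.23 times (*Su(var)3-9*) and 1.47 times (*G9a*) for the other 6. The gene whose library profile lay nearest to each member was found by the root mean square difference of centred log2 CPM over the 8 libraries. It was *CG4364* for *HP1a* (0.07), *trem* for *HP1b* (0.08), *Spase22-23* for *HP1c* (0.09), *CG8184* for *Su(var)3-9* (0.05), *CG11983* for *egg* (0.05), *Rgl* for *G9a* (0.06), *CG1129* for *Su(var)3-7* (0.03), *scrib* for *Su(var)2-10* (0.03) and *gish* for *JIL-1* (0.04). The median distance to all genes was 0.29 to 0.41. Within the set, *HP1a* and *HP1c* were each other's nearest member (0.19), as were *egg* and *Su(var)3-7* (0.11), *G9a* and *JIL-1* (0.12), and *Su(var)3-9* and *Su(var)2-10* (0.13). Among all genes these nearest members stood at ranks 41 to 558.

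Antisense reads over the 9 genes were few apart from *HP1c*. They made up 20.1% of all *HP1c* reads (112 antisense and 444 sense reads in 8 libraries), 6.16% of *HP1b*, 4.58% of *Su(var)3-7*, 3.87% of *JIL-1* and between 0.546% (*G9a*) and 1.42% (*egg*) of the others, where antisense reads were 8.59% to 10.95% of all gene counts in a library. The 2 libraries of a line pooled, the share in *HP1c* was 25.4% (18.8 to 33.2%) in the G3 line, 21.1% (15.3 to 28.2%) in the A7 line and 17.3% (11.7 to 24.8%) in the B2 line, against 16.6% (11.3 to 23.6%) in the S2 line (95% Wilson intervals, which cover counting error only), with intervals that overlap. *HP1c* shares 160 bp (16.4% of its length) with *CG17141*, of whose reads 29.2% were antisense. The table gives no strand, so reads from the shared stretch cannot be told apart, and their part in the antisense share of *HP1c* was not tested. The other overlaps were 14 bp of *HP1a* with *CG8419*, 45 bp of *HP1b* with *CG7246* and 59 bp of *Su(var)3-9* with *Set*. In the test of antisense counts for any difference among the 4 lines, 0 of 9 members were called by edgeR and 0 of 9 by DESeq2. Of the 12610 genes tested, edgeR called 0.73% and DESeq2 called 94. The lowest unadjusted p of a member was 0.563 (*Su(var)2-10*), so 0 of 9 were under 0.05, where 3.24% of all genes were.

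Partner genes of the 9 were read from 5 lists with 33 genes, of which 32 had enough reads to test. *HP1e*, a paralogue of the male germ line, had reads only in the 2 S2 libraries, at 0.232 and 0.176 CPM, below the value of 3 counts. Of these 32, edgeR called 1 gene in a comparison of lines (in that of G3, where 0.603% of all genes were called, and in that of the 4 lines, where 0.572% were). It was *rhi*, which encodes Rhino, the HP1 paralogue that marks piRNA source loci in the ovary. *rhi* had 20.6 and 30.5 CPM in the G3 libraries, 7.17 and 5.49 CPM in those of A7 and 15.4 and 18.8 CPM in those of B2, against 5.33 and 4.05 CPM in those of S2. Every mutant library was above both S2 libraries, as in 3.8% of all genes, by far the most in G3 and B2. In A7 the gap was narrow, 5.49 CPM in replicate 2 against 5.33 CPM in S2 replicate 1. It rose in G3 by 2.42 ± 0.28 on the log2 scale (SE, adjusted p = 0.0209), and had 0.44 ± 0.29 in A7 (adjusted p = 0.752) and 1.84 ± 0.28 in B2 (adjusted p = 0.292). Over the 4 lines it had an adjusted p of 0.0301, and this call was lost without any 1 library (0.0512 to 0.0958) and with strands summed (0.0720). Among the 3 mutant lines it was not called (0.0803), nor over the mean of the 3 lines (0.104). Other settings called *rhi* in B2, among the 3 mutant lines and over the mean: DESeq2 at adjusted p of 0.0033, 0.00056 and 0.0012, the fit with no filter at 0.0089, 0.0026 and 0.0048, and the fit with a replicate block at 0.035, 0.0074 and 0.017. The G3 call was lost without S2 replicate 1 (adjusted p = 0.0848), S2 replicate 2 (0.127) or G3 replicate 2 (0.0921), and with G3 and S2 libraries alone (0.0839), while the value stayed between 2.17 and 2.72. *Umbrea*, a young paralogue derived from *HP1b*, had 1.87 and 0.194 CPM in the G3 libraries, 1.23 and 1.37 CPM in those of A7 and 4.71 and 5.99 CPM in those of B2, against 2.20 and 3.00 CPM in those of S2. The G3 replicate 2 value is below that of 3 counts, which is 0.582 CPM in that library. G3 and A7 were below both S2 libraries, as in 21.1% and 19.5% of all genes, and B2 was above both, as in 13.1%. *Umbrea* was called in none of the lines (adjusted p of 0.681, 0.816 and 0.999 for G3, A7 and B2).

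The other lists had 0 genes called in any line by edgeR and 0 by DESeq2. Over all tested genes DESeq2 called 195 for G3, 162 for A7 and 38 for B2. Of 15 HP1 partners and other heterochromatin proteins, the mean of the 3 mutant lines against S2 was lowest for *HP4* (-0.31, adjusted p = 0.830), an HP1 binding protein, and highest for *Lhr* (0.24, adjusted p = 0.818), another HP1 binding protein known from hybrid lethality. Of 6 genes for H3K9 cofactors and erasers, which include the SetDB1 cofactor gene *wde*, it ran between -0.09 for the histone deacetylase gene *Rpd3* and 0.08 for the H3K4 demethylase gene *Su(var)3-3*. Of 6 SUMO pathway genes it ran between -0.26 for *smt3*, which encodes SUMO, and 0.04 for *Ulp1*, a SUMO protease gene. Of 3 partners in H3 serine 10 phosphorylation it ran between -0.22 for *ial*, the Aurora B kinase gene, and 0.20 for *Chro*, which encodes the JIL-1 partner Chromator. Unadjusted p fell under 0.05 for 3 of the 32 partner genes in the G3 fit, 2 in the A7 fit and 1 in the B2 fit, where 11.1%, 8.75% and 3.25% of all genes were under it. The median of the 32 genes was -0.06 for G3, -0.05 for A7 and -0.06 for B2, close to the medians over all genes given above.

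**Figure D5:**
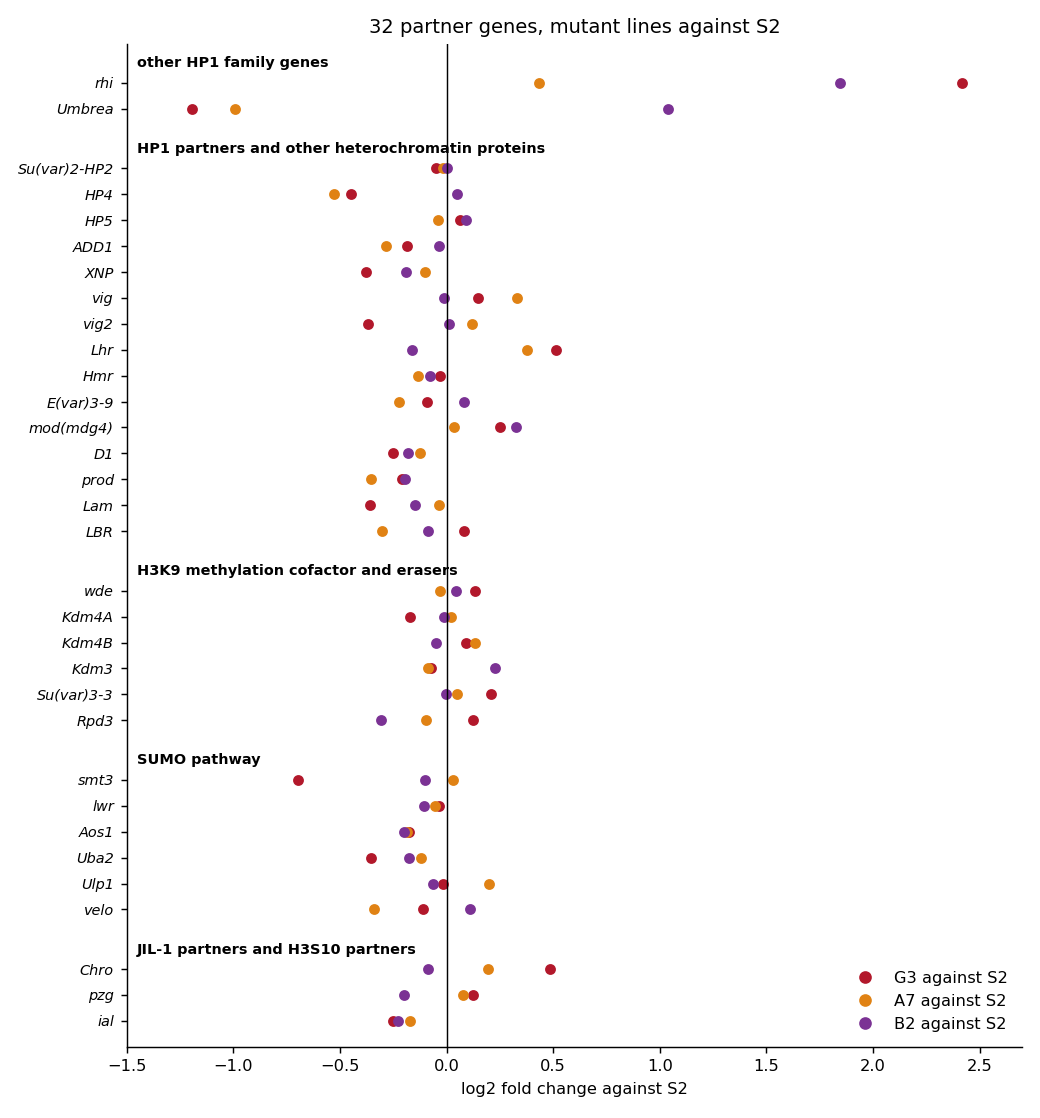
Log2 fold change of G3, A7 and B2 against S2 for the 32 tested partner genes, grouped by list. *rhi* lies at 2.42 in G3 and 1.84 in B2, *Umbrea*, with few reads, lies on both sides of 0, and the others stay between -0.70 and 0.51.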

How the data were processed

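Nascent RNA-seq libraries of 3 *upSET* mutant lines and S2 (2 each) were analysed from gene counts. The authors made the deposited sense and antisense counts per gene by trimming reads with Cutadapt, keeping those that Bowtie mapped to a single place in dm3 and splitting them by strand. The submitters' processing notes name Bowtie 0.12.7 and bedtools. Reads shared by near-identical copies were therefore not counted. Columns marked r3 were taken as replicate 2, the one library of each line left after r1, and 0 columns of sample values were left unused.

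Counts were tested in R 4.3.3 with edgeR 4.0.16 (TMM scaling, quasi-likelihood test, one term per line over all 8 libraries, Benjamini-Hochberg adjusted p threshold of 0.05, two-sided), on genes with at least 1 CPM in at least 2 libraries. A prior count of 2 was used for log2 CPM, and the test was checked on simulated counts. Alternatives were DESeq2 1.42.0, library size alone, no filter, summed strands, a replicate block, fewer lines and each library left out. Figures used Python 3.11.15 and matplotlib 3.10.9.

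The members and the lists of partner genes were chosen with earlier results of these data known. Named are the 9 members, genes that overlap them, the nearest gene in library profile, *CG9007*, and partner genes called in a sense comparison or lowest or highest in their list over the mean of the 3 mutant lines. *HP1e* and *Umbrea* were named after their values were seen. Symbols were matched through RefSeq synonyms, among them *Velo* (*CG10107*), *ADD1* (*CG8290*), *Kdm3* (*JHDM2*) and *Umbrea* (*HP6*).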

Additional observations from a re-analysis of the deposited data

How the results depend on the processing

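No member was called under any alternative in the comparisons of lines (0 of 711 values). Of the log2 fold changes among these values, 24 changed sign. The rest are adjusted p of tests for any difference among lines, which have no sign. The counts of called genes were 58 for G3, 36 for A7, 1 for B2, 15 for the mean of the 3 mutant lines, 55 among the 4 lines and 40 among the 3 mutant lines, and 92 for antisense counts. In the same order of the sense comparisons, DESeq2 called 195, 162, 38, 98, 343 and 263 genes, and edgeR without the filter called 171, 156, 32, 90, 287 and 219, with 182 for antisense counts. Library size alone gave 0 genes for B2, summed strands gave 20 for A7, and fits of the 2 lines compared gave 15, 12 and 0 for G3, A7 and B2. Antisense counts scaled by the sense factors gave 43. The cause of these shifts was not tested.

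The replicate block called 562, 353, 41, 191, 735 and 629 genes, and 619 for antisense counts. The labels do not say what a replicate number marks, and each comparison with S2 holds 2 pairs, so the block stands as an alternative. As a hint from the data that the numbers pair the libraries, deviations of same-numbered libraries correlated across genes at 0.50 to 0.64, all 8 libraries matched best with their own number, and the first principal component (44.1% of the variance) separated the numbers. With the block, *G9a* had adjusted p of 0.0670 among the 4 lines and 0.0512 among the 3 mutant lines, where 7.65% and 6.54% of all genes passed. Over the mean the block gave unadjusted p under 0.05 for *egg* (0.019), *Su(var)3-7* (0.029) and *HP1b* (0.030). It did so in G3 for *Su(var)3-7* (0.021), *JIL-1* (0.025), *Su(var)2-10* (0.026) and *G9a* (0.039). In A7 these were *egg* (0.011), *HP1b* (0.021) and *Su(var)3-7* (0.022), and in B2 *G9a* (0.0497). The share of all genes at an unadjusted p under 0.05 was not counted there. After adjustment no member passed. In the same fits 5.85% of all genes passed for G3, 3.67% for A7, 0.427% for B2 and 1.99% for the mean.

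The sign of *Su(var)3-9* turned with library size alone, at -0.11 for G3, -0.056 for B2 and -0.031 for the mean, and with summed strands, at -0.0054 for G3. In A7 *JIL-1* had 0.00016 by DESeq2 and 0.014 in the fit of A7 and S2.

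With each library left out in turn, which leaves an arm with 1 library assumed to vary like the others, the calls were 17 to 23 for G3, 12 to 25 for A7, 0 to 2 for B2, 1 to 15 for the mean, 30 to 60 among the 4 lines, 14 to 26 among the 3 mutant lines and 98 to 480 for antisense counts. The comparison of replicates, added after the data were seen, called 1679 genes with all libraries and 595 to 1329 with 1 left out. Left out in the same way, *HP1a* had log2 fold changes of -0.52 to 0.32 for G3, -0.45 to 0.42 for A7, -0.70 to 0.13 for B2 and -0.55 to 0.29 for the mean. *HP1c* had -0.69 to 0.28 for G3, -0.46 to 0.40 for A7, -0.43 to 0.40 for B2 and -0.49 to 0.36 for the mean. *Su(var)3-9* had -0.053 to 0.14 for G3 and -0.048 to 0.13 for B2, *Su(var)2-10* had -0.063 to 0.25 for A7, and *JIL-1* had -0.041 to 0.048 for A7.

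With 2 libraries a line and no block, the widest member interval in the G3 fit ran from 0.445-fold to 1.68-fold (*HP1c*). Fold changes across that range cannot be told apart for *HP1c* in G3. With the block its interval there was -0.79 to 0.35 (log2). Other members had narrower intervals, such as 0.794-fold to 1.27-fold for *Su(var)3-9* in G3 without the block.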
